A study of Homo sapiens with 2 samples.

Results

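The nuclear genes of oxidative phosphorylation were followed here, that is, the genes on the nuclear chromosomes that encode subunits of respiratory complexes I to IV and of the ATP synthase, complex V. They were taken by a rule on the symbol, set with earlier results of these data known, among protein-coding genes outside the mitochondrial genome. For complex I the symbol begins with NDUFA, NDUFB, NDUFC, NDUFS or NDUFV and a digit. For complex II it is SDHA, SDHB, SDHC or SDHD. For the others it begins with UQCR (complex III), COX4 to COX8 (complex IV) or ATP5 (complex V). The rule found 90 of the 58735 genes in the table, with 39 genes for complex I, 4 for complex II, 9 for complex III, 17 for complex IV and 21 for complex V. Some of them are not subunits in the strict sense. ATP5IF1 encodes an inhibitor of the ATP synthase, ATP5S a coupling factor, and COX7A2L a factor that joins complexes III and IV, while ATP5MF-PTCD1 and NDUFC2-KCTD14 are readthrough loci. The protein of NDUFA4 is now known as a component of complex IV, but it is counted with complex I here because of its symbol.

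RNA was sequenced from 1 library of MAEL WT cells, given in the labels as non-treated and wildtype, and from 1 library of MAEL KO cells. Both came from PLC8024, also called PLC/PRF/5 or Alexander cells, an epithelial hepatoma line. The knockout cells had received a plasmid with Cas9 and a sgRNA against MAEL, were sorted for mCherry, and were grown from single cells, so that a knockout line stems from a clone, whereas no such cloning is described for the wild type cells. With 1 library per condition no difference has a replicate check, no test of the conditions was possible, and the clone and the knockout cannot be told apart.

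Oxidative phosphorylation takes electrons from NADH at complex I and from succinate at complex II, and passes them over ubiquinone to complex III and over cytochrome c to complex IV, where oxygen is reduced. Complexes I, III and IV pump protons across the inner mitochondrial membrane, and the ATP synthase uses their return to make ATP. All of complex II and most subunits of the other complexes are nuclear genes, which are translated in the cytosol and must meet the subunits made from mitochondrial DNA. Hepatocytes are rich in mitochondria, while many tumour cells also run glycolysis at a high rate.

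Summed over genes, there were 19904136 counts for MAEL WT and 20833332 for MAEL KO. MAEL itself had 1 and 0 counts, so the targeted gene could not check the labels. Of the hepatocyte markers, 7 of 7 had at least 10 counts in a library, and their sum went from 161593 counts in MAEL WT to 388543 in MAEL KO. Most of that sum was SERPINA1 and APOB, and the libraries stood further apart in ALB, with 59 and 8550 counts, AFP, with 26 and 1351, and APOA1, with 419 and 4400. The 4 epithelial markers summed to 22644 and 35468 counts, with EPCAM at 15 and 0. The sums for other cell types were 275 and 177 counts for 6 fibroblast markers, 353 and 407 for 3 endothelial markers, and 1290 and 745 for 5 leukocyte markers, nearly all of it LYZ. For 4 muscle markers they were 44 and 5. CD3E, MYH7 and ACTC1 were at 0 in both libraries. The part of these markers in the results was not tested, and in bulk RNA fewer cells of a type and less RNA per cell cannot be told apart.

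The nuclear genes of oxidative phosphorylation were, as a group, moderately higher in MAEL KO. All log2 fold changes compare the knockout with the wild type, so that positive values stand for higher levels in MAEL KO. They were taken after TMM scaling, which sets the libraries to a common level, with 1 added to the scaled counts. A gene was tested where either library reached 10 counts, and 84 of the 90 members did so. Their median was 0.56 (95% interval of the median from its order statistics 0.48 to 0.68), or 1.48-fold, and 73 of the 84 were above 0. Of the 17887 genes tested, 48% were above 0 and their median was -0.04. Intervals of medians, here and below, treat genes as independent draws. They describe the spread over genes and say nothing on the error of MAEL KO against MAEL WT. Among the 11131 nuclear protein-coding genes with at least 100 counts, which are closer to the members in abundance, 55.2% were above 0 and the median was 0.08.

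Differences of individual genes were small. No member was above a log2 fold change of 2, the threshold used by the study, against 2.16% of all genes tested and 1.48% of the well counted nuclear protein-coding genes just described. Below -2 were 2 members, against 5.64% and 2.26%. At a threshold of 1, 5 members were above, against 10.2% and 9%, and 3 were below -1, against 16.5% and 8.28%. The second share of each pair is over genes with at least 100 counts, a filter not set for the members here. Of the 79 members with at least 100 counts, 0 were below -2, 5 above 1 and 1 below -1. The exact Clopper-Pearson interval of a gene's fold change, which covers counting error only, lay wholly above 0 for 69 members, against 34.8% of all genes tested and 46.1% of the well counted ones. It lay wholly below 0 for 8 members, against 34.7% and 35.3%, and reached across 0 for the other 7. Most members thus differed by a small amount in the same direction.

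The size of this shift depends on how the libraries are scaled. With total counts in place of TMM, each log2 fold change of a well counted gene is lower by 0.28. The members then had a median of 0.29 and all genes tested a median of -0.31, with 69 members above 0 against 34.6% of all genes. The interval lay above 0 for 58 members against 22.5% of all genes, and below 0 for 13 members against 49.3%. A plain share of the library also divides by total counts, and so is no separate check of the scaling. By that share the 90 members took 0.745% of all counts in MAEL WT (95% interval 0.741% to 0.748%) and 0.936% in MAEL KO (0.932% to 0.940%), a ratio of 1.26. In TPM, which divides counts by gene length and by the library sum of such values, 64 of the 84 were higher in MAEL KO.

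**Figure D1:**
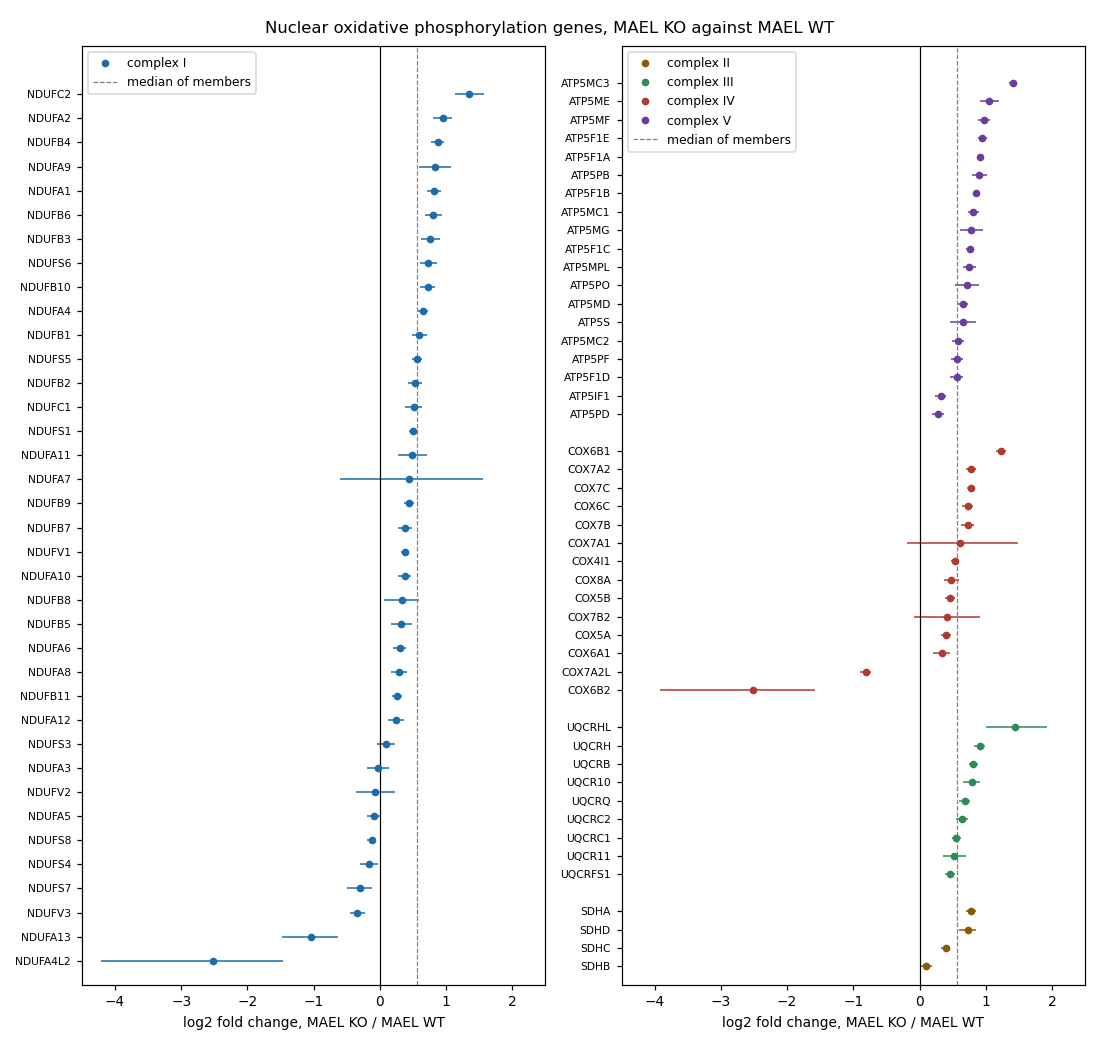
Log2 fold change, positive where MAEL KO is higher (x axis) for 83 of the 84 tested members (y axis), complex I on the left and complexes II to V on the right, from 1 library each. Points are TMM-scaled values, bars their 95% counting intervals, the solid line 0 and the dashed line the members' median of 0.56. Most points lie between 0 and 1, while NDUFA4L2, COX6B2, NDUFA13 and COX7A2L lie apart on the left.

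Since NRF1, ETS factors such as GABPA, and YY1 are known to act on promoters of these genes, their letters were searched in the promoter windows of RefSeq (GRCh38.p14), which reach from 250 bases before to 50 after each start. A window was found for 72 of the 90 members. The NRF1 core GCATGCGC was found on either strand in 19.4% of them and in 4.89% of the 15843 protein-coding genes with a window. For the ETS letters CCGGAAG the shares were 29.2% and 16.5%, and for the YY1 letters AAGATGGC 16.7% and 4.66%. The 14 tested members with the NRF1 core had a median log2 fold change of 0.51 and the 55 without it 0.53, and for the ETS letters the medians were 0.53 for 21 and 0.52 for 48. For the YY1 letters they were 0.39 for 12 and 0.53 for 57. No test of these differences was made. A match is a description and not a proven site.

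As examples only, stretches before a RefSeq start that overlap no exon of GENCODE 29 are given for NDUFB4, COX6A1, COX6B1 and COX7A2L. NDUFB4, a member at 0.87, has a palindrome in which the core on both strands overlaps, and COX6A1, at 0.34, has the core at 2 places. COX6B1 and COX7A2L are the highest and the lowest abundant gene of complex IV, and none of these letters is found in their stretches. COX6B1 and COX6A1 hold the ETS letters elsewhere in their windows. The COX7A2L stretch lies before a RefSeq start inside the annotated gene, which spans 42333546 to 42425088 on the minus strand. That stretch is thus not upstream of the whole gene. Sequences run 5′ to 3′ on the strand of the gene, with the NRF1 core in capitals, at chr3:120596086-120596308 (plus), chr12:120437863-120438089 (plus), chr19:35648073-35648222 (plus) and chr2:42369011-42369207 (minus).
NDUFB4: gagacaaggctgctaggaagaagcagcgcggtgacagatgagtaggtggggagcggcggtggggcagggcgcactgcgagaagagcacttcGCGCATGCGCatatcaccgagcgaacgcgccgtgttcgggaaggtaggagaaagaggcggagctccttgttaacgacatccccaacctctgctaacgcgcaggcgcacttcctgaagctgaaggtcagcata
COX6A1: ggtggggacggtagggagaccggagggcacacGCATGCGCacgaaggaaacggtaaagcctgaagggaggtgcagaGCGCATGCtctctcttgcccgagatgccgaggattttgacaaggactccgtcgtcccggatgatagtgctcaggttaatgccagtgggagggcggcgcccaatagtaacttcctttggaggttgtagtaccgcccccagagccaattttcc
COX6B1: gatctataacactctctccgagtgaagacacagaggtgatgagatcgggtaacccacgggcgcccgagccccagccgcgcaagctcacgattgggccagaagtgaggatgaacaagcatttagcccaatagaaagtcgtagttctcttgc
COX7A2L: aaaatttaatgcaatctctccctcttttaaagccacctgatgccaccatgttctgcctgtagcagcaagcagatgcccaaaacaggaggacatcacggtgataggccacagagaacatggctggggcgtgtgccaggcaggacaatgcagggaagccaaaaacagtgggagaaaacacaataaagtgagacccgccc

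Among the members, levels per length in MAEL WT reached from 1.80 TPM for NDUFA7 to 727 TPM for NDUFS5. The lengths are those of all annotated exons of a gene together, which lowers the TPM of genes with long, rarely used exons. The most abundant members in MAEL WT were NDUFS5, an accessory subunit of complex I, with 727 TPM in MAEL WT and 855 in MAEL KO, ATP5F1B, the catalytic beta subunit of the ATP synthase, with 715 and 1022 TPM, and NDUFB7, with 471 and 488 TPM. At the other end were NDUFA7, COX6B2 and NDUFA4L2. The fold change had little relation to the level or to gene length across the 84 members, which share 1 pair of libraries, with a Spearman's rho of 0.15 for TPM in MAEL WT and -0.11 for length. The members lie on 22 chromosomes, and subtracting the median of each gene's chromosome left 75 of them above 0.

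**Figure D2:**
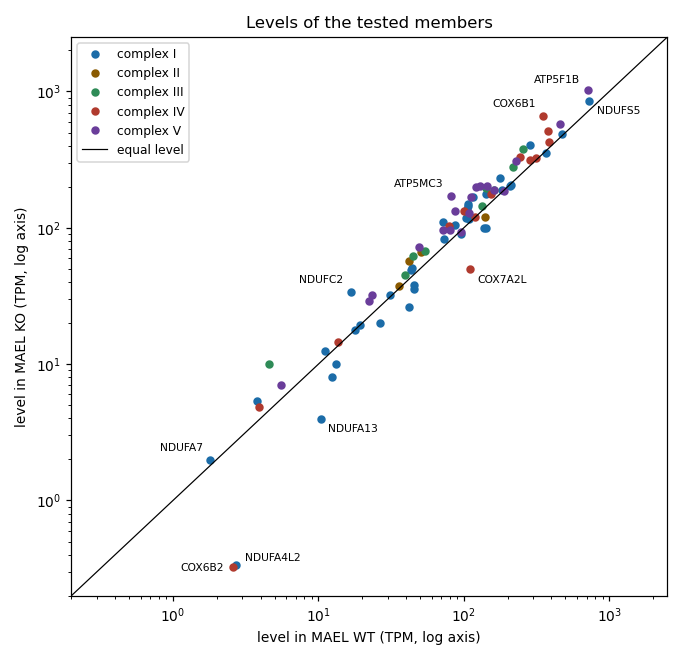
Level in TPM of each of the 84 tested members in MAEL WT (x axis) and MAEL KO (y axis), both on log axes, coloured by complex, with the line of equal level. Most members lie slightly above the line, ATP5F1B is the highest in MAEL KO at 1022 TPM, and COX6B2 and NDUFA4L2 lie far below the line at 0.327 and 0.334 TPM.

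The complexes differed in how much and how evenly their genes were higher. Complex V took 0.233% of all counts in MAEL WT (95% interval 0.231% to 0.235%) and 0.341% in MAEL KO (0.339% to 0.344%), a ratio of 1.47. For complex III the shares were 0.0773% and 0.102%, a ratio of 1.32, and for complex IV 0.139% and 0.167%, a ratio of 1.20. For complex II they were 0.0400% and 0.0459%, a ratio of 1.15, and for complex I 0.256% (0.253% to 0.258%) and 0.280% (0.277% to 0.282%), a ratio of 1.09. Complex I thus held the largest share of the 5 in MAEL WT and complex V the largest in MAEL KO.

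**Figure D3:**
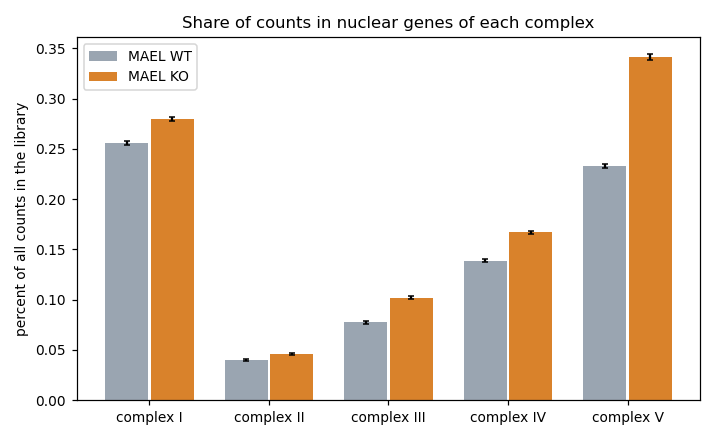
Percent of all counts in the library (y axis, from 0) that fell in the nuclear genes of each complex (x axis), for MAEL WT and MAEL KO, 1 library each. Bars are shares and whiskers 95% exact binomial intervals, which cover counting error only. Complex V goes from 0.233% to 0.341% and complex I from 0.256% to 0.280%.

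Complex I, NADH dehydrogenase, is the largest complex and had genes on both sides of 0. Of its 38 tested genes, 29 were above 0, and their median was 0.41 (0.29 to 0.53). Its 7 nuclear core subunits, which carry the flavin and iron-sulfur clusters and the quinone site, had a median of 0.09, with 4 of 7 above 0. The 31 other genes had a median of 0.45, with 25 above 0. The split into core and accessory genes and into the lettered classes below was laid over these data with their values in view, and is given as a description.

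The core subunits lay on both sides of 0. NDUFV1, which binds NADH, had 5471 counts in MAEL WT and 6146 in MAEL KO, a log2 fold change of 0.38 (95% interval 0.33 to 0.43). NDUFS1 went from 3138 to 3857 counts, at 0.51 (0.44 to 0.58). NDUFS3, with 979 and 901 counts, was at 0.09 and NDUFV2, with 211 and 174 counts, at -0.07, and both intervals reached across 0. NDUFS8, which carries iron-sulfur clusters, was lower in MAEL KO, with 3669 and 2908 counts and a log2 fold change of -0.12 (-0.20 to -0.05). NDUFS7, its neighbour in the complex, had 554 and 388 counts, at -0.30 (-0.49 to -0.11). In the annotation, 49.1% of the exon bases of NDUFS7 also lie in exons of other genes, and whether the counting used strand is not given in the sources used here. With total counts NDUFV1 was at 0.10, and NDUFS3 and NDUFS8 moved to -0.19 and -0.40.

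The NDUFB genes, accessory subunits of the membrane arm, were higher in MAEL KO after TMM scaling, though not by every measure. All 11 had intervals above 0, but with total counts NDUFB11 was at -0.02, and in TPM NDUFB11 went from 370 to 351 and NDUFB5 from 18.0 to 17.9. The TMM values ran from NDUFB11 at 0.26 to NDUFB4 at 0.87, and their median was 0.53. NDUFB4 had 1296 and 2052 counts. The 14 NDUFA genes ran from -2.52 to 0.95 with a median of 0.34, and the 8 NDUFS genes from -0.30 to 0.73 with a median of 0.30. Of the 3 NDUFV genes only NDUFV1 was above 0, and NDUFV3 was at -0.34 with 1564 and 1068 counts. The highest NDUFA gene was NDUFA2, with 627 and 1048 counts and 0.95 (0.81 to 1.10). The highest of all complex I genes was NDUFC2, with 261 and 577 counts and a log2 fold change of 1.35 (1.14 to 1.57), and the readthrough locus NDUFC2-KCTD14, which overlaps it on chromosome 11, had 0 counts in both libraries.

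NDUFA13 and NDUFA4L2 were the complex I genes furthest below 0. NDUFA13, an accessory subunit also known as GRIM-19 that has been tied to cell death, had 165 counts in MAEL WT and 69 in MAEL KO, a log2 fold change of -1.04 (-1.47 to -0.63). Its level was 10.3 and 3.98 TPM, and 21% of its exon bases lie in exons of other genes, YJEFN3 among them. NDUFA7 likewise had 15 and 18 counts only, and 33.5% of its exon bases are shared. NDUFA4L2, a relative of NDUFA4 known to be induced by hypoxia, had 45 and 6 counts, a log2 fold change of -2.52 (-4.22 to -1.46). NDUFA4 itself went from 2965 to 4027 counts, at 0.65 (0.58 to 0.72). NDUFA4L2 made up 1.5% of the counts of the pair in MAEL WT (95% interval 1.09% to 2.0%) and 0.149% in MAEL KO (0.0546% to 0.324%). These intervals cover counting error only, and the counts of NDUFA4L2 were few in both libraries. NDUFV3, NDUFS7, NDUFS4 and NDUFS8 were the other complex I genes with an interval below 0.

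**Figure D4:**
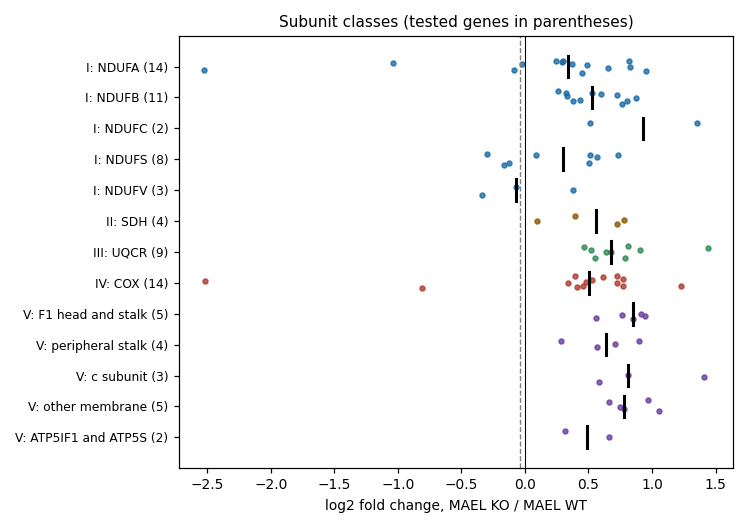
Log2 fold change, positive where MAEL KO is higher (x axis) for each tested member, grouped by subunit class (y axis, number of genes in parentheses). Points are genes, black bars class medians, the solid line 0 and the dashed line the median of all genes tested, -0.04. The 11 NDUFB genes and all classes of complexes II, III and V lie above 0 under this scaling, where NDUFB11 and SDHB would lie below 0 with total counts, while NDUFA, NDUFS, NDUFV and COX genes lie on both sides.

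Complex II, succinate dehydrogenase, is shared with the tricarboxylic acid cycle. Its 4 genes were above 0 with a median of 0.56, except that SDHB was below 0 with total counts. SDHA, the flavoprotein, had 2073 counts in MAEL WT and 3072 in MAEL KO, a log2 fold change of 0.78 (0.70 to 0.86). SDHB, the iron-sulfur subunit, had 2034 and 1878 counts, at 0.10, and was at -0.18 with total counts. The membrane anchors SDHC, with 2995 and 3399 counts, and SDHD, with 850 and 1217, were at 0.39 and 0.73. The subunits of this complex thus did not move by one amount, since the intervals of SDHA and SDHD lay above those of SDHB and SDHC.

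Complex III, the cytochrome bc1 complex, was higher throughout. Its 9 genes had a median of 0.68 and ran from 0.46 to 1.44, all with intervals above 0. UQCRFS1, the Rieske iron-sulfur protein, was the lowest, with 2712 and 3231 counts and 0.46 (0.39 to 0.54). UQCRC1 and UQCRC2, the large core proteins, went from 3076 to 3898 and from 1666 to 2247 counts, at 0.55 and 0.64. The small subunits UQCRB and UQCR10 were at 0.81 and 0.79, and UQCR11 at 0.52. UQCRH, the hinge protein, had 2107 and 3411 counts, at 0.91 (0.83 to 0.98). UQCRHL, with 59 and 140 counts and the highest value of all members, 1.44 (1.01 to 1.92), is a near copy of UQCRH, so its reads may belong to UQCRH and its value is uncertain.

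Complex IV, cytochrome c oxidase, has several subunits with alternative genes for other tissues. Its 14 tested genes had a median of 0.51, and 12 were above 0. The abundant genes other than COX6B1 and COX7A2L lay between 0.34 and 0.77. At the low end were COX6A1, with 944 and 1031 counts, at 0.34, COX5A at 0.39 and COX5B at 0.46. COX8A was at 0.48 and COX4I1, with 4361 and 5438 counts, at 0.53. At the high end were COX7B at 0.72, COX6C at 0.73, and COX7C and COX7A2 at 0.77. COX6B1, which faces the intermembrane space, stood above that range with 1945 counts in MAEL WT and 3931 in MAEL KO, a log2 fold change of 1.23 (1.15 to 1.30).

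The tissue isoforms of complex IV had few counts in both libraries. COX6B2, the testis form of COX6B, had 58 counts in MAEL WT and 8 in MAEL KO, a log2 fold change of -2.52 (-3.93 to -1.57), the reverse of COX6B1. COX6B2 was 2.90% of the pair in MAEL WT (2.21% to 3.73%) and 0.203% in MAEL KO (0.0877% to 0.400%), and 30.9% of its exon bases lie in exons of the gene AC020922.1. COX7B2 had 65 and 75 counts, at 0.41, and COX7A1, the heart and muscle form, 23 and 31, at 0.62, and both intervals reached across 0. The muscle form COX6A2 had 1 and 0 counts, COX4I2, the form tied to low oxygen, 0 and 0, and COX8C 0 and 1. All of these 3 were at or under 3 counts, the floor used here, which corresponds to 0.151 CPM in MAEL WT and 0.144 CPM in MAEL KO, so that a difference was not detectable at this depth. COX7A1, at 31 counts, and NDUFA7, at 18, were the members just inside the filter of 10 counts, and ATP5MF-PTCD1 and ATP5MGL, at 2, were just outside it.

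COX7A2L was lower in MAEL KO although it was an abundant member. It encodes a relative of COX7A2, also called SCAF1, that takes part in joining complexes III and IV into supercomplexes, and it lies on chromosome 2 from 42333546 to 42425088 on the minus strand of GRCh38. It had 3625 counts in MAEL WT and 1783 in MAEL KO, or 110 and 49.7 TPM, a log2 fold change of -0.81 (-0.90 to -0.73). COX7A2 moved the other way, from 2768 to 4094 counts, at 0.77 (0.71 to 0.85). The share of COX7A2L in the counts of both genes went from 56.7% (55.5% to 57.9%) to 30.3% (29.2% to 31.5%). No exon of COX7A2L is shared with another gene, and the 6 other tested protein-coding genes within 1 Mb had a median of 0.27. With total counts COX7A2L was at -1.09.

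Complex V, the ATP synthase, had the highest median of the 5 complexes. All 19 tested genes were above 0 with intervals above 0, and the median was 0.76 (0.58 to 0.91), or 1.70-fold, while in TPM ATP5PD, at 96.0 and 92.8, and ATP5IF1, at 188 and 186, were slightly lower in MAEL KO. The 5 genes of the F1 head and central stalk had a median of 0.85. ATP5F1B had 9780 counts in MAEL WT and 15200 in MAEL KO, a log2 fold change of 0.85 (0.81 to 0.88), and ATP5F1A, the alpha subunit, 7204 and 11738, at 0.91 (0.87 to 0.96). These catalytic subunits thus moved closely together. ATP5F1C, the gamma subunit of the stalk, was at 0.76, ATP5F1E at 0.94 and ATP5F1D at 0.56.

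The c subunit of complex V, which forms the proton-driven ring in the membrane, is made from 3 genes whose mature proteins are the same and which differ in the mitochondrial targeting sequence. ATP5MC3 had 3247 counts in MAEL WT and 7452 in MAEL KO, a log2 fold change of 1.41 (1.35 to 1.47), the highest value of any member but UQCRHL. ATP5MC1 went from 2218 to 3366 counts, at 0.81 (0.73 to 0.89), and ATP5MC2 from 1903 to 2459, at 0.58 (0.49 to 0.67). The counts of the family were thus shifted towards ATP5MC3, whose share went from 44.1% (42.9% to 45.2%) to 56.1% (55.3% to 57%). The 9 other tested protein-coding genes within 1 Mb of ATP5MC3 had a median of -0.56. Such medians lay on both sides of 0 for other members. Near UQCRB, at 0.81, 5 genes had a median of 0.77, and near NDUFB4, at 0.87, 11 genes had 0.68. For ATP5F1B, at 0.85, the median of 72 genes was -0.20. The part of the region in these values was not tested.

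The remaining genes of complex V belong to the membrane part, the peripheral stalk and the regulators. The 5 other membrane genes had a median of 0.78, with ATP5ME at 1.05 and ATP5MF at 0.97. For ATP5ME, with 669 and 1201 counts, 61.6% of the exon bases lie in exons of MYL5, the only tested member with over 50% shared. The 4 genes of the peripheral stalk had a median of 0.64, from ATP5PD, with 1827 and 1921 counts, at 0.28, to ATP5PB at 0.90. ATP5IF1, the inhibitor that stops the enzyme from hydrolysing ATP, had 2464 and 2656 counts and a log2 fold change of 0.32 (0.24 to 0.40), below ATP5F1A and ATP5F1B by more than their counting intervals. ATP5S was at 0.66 with 370 and 505 counts.

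The subunits encoded in mitochondrial DNA are the partners of these genes in complexes I, III, IV and V. All 13 were above 0 after TMM scaling, with MT-CO1 below 0 with total counts, and their median was 0.75 (0.60 to 0.86), and took 3.75% of all counts in MAEL WT and 4.60% in MAEL KO, a ratio of 1.23 beside 1.26 for the nuclear genes. MT-CO1, the catalytic subunit of complex IV and the most abundant transcript, had 306671 and 314802 counts and was the lowest at 0.25, or -0.03 with total counts. MT-ND2 of complex I was the highest, with 22266 and 49777 counts and 1.37, followed by MT-ND1 at 0.90 and MT-ND6 at 0.86. For complex V, MT-ATP6 was at 0.71 and MT-ATP8 at 0.60, while MT-CO2 of complex IV was at 0.54. CYC1, the cytochrome c1 of complex III, CYCS, the mobile cytochrome c, and NDUFAB1, the acyl carrier protein of complex I, are nuclear but outside the symbol rule, and were at 0.53, 0.35 and 0.55.

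Assembly factors, which help to build the complexes without staying in them, lay on both sides of 0 for each complex. Of 60 tested factors, 43 were above 0, 1 was above 1 and 1 below -1, against 48%, 10.2% and 16.5% of all genes tested. The median of the factors was 0.26 (0.10 to 0.45). That median was -0.01 with total counts. For complex I, 17 of 20 factors were above 0 with a median of 0.46, from TMEM186 at -0.42, NDUFAF2 at -0.34 and NDUFAF3 at -0.33 to NDUFAF4 at 0.86, AIFM1 at 0.93 and DMAC1 at 0.95. For complex II the median of 4 was 0.37, from SDHAF4 at -0.05 to SDHAF3 at 0.82. For complex III the median of 6 was 0.09, from UQCC1 at -0.19 to UQCC3 at 0.26, although all subunits of that complex were at 0.46 or more. For complex V the median of 5 was 0.13, up to TMEM70, which helps to form the c ring, at 0.87. The lowest of these was FMC1 at -0.21, with 27 and 20 counts and an interval across 0 (-1.13 to 0.67).

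The 25 factors for complex IV spread most widely, with 16 above 0 and a median of 0.12. At the low end were PET100, with 75 and 27 counts, at -1.24 (-1.96 to -0.61), and COX20, with 62 and 31 counts, at -0.77 (-1.46 to -0.15). SCO2, with 27 and 13 counts, was at -0.80, and its interval reached across 0 (-1.92 to 0.16). At the high end were COX11 and COX17, both needed to bring copper to the enzyme, at 0.74 and 0.94, and COX16, with 27 and 51 counts, at 1.10. SURF1, with 1408 and 950 counts, was at -0.36.

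Among 19 regulators of mitochondrial gene expression, 15 were above 0 and 2 above 1, against 48% and 10.2% of all genes tested. Their median was 0.67 (0.01 to 0.79). TFAM, which packages and transcribes mitochondrial DNA, had 1075 counts in MAEL WT and 2308 in MAEL KO, a log2 fold change of 1.31 (1.21 to 1.42). SLIRP and LRPPRC, which stabilise mitochondrial mRNA as a complex, were at 0.90 and 0.67, and MTERF1 at 0.90. Of the factors that act on the nuclear genes, NRF1 had 308 and 380 counts, at 0.51 (0.29 to 0.73), and GABPA 705 and 979, at 0.68. GABPB1 and GABPB2, also in this list, were at -0.02 and 0.01, and both intervals reached across 0. ESRRA, at -0.11, and YY1, at -0.17, were lower. PPARGC1A, the coactivator PGC-1 alpha, had 6 and 12 counts only, and its value of 1.08 had an interval that reached across 0, while PPARGC1B had 204 and 300, at 0.76.

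Set beside other metabolic lists, the nuclear oxidative phosphorylation genes had a median near those of other mitochondrial lists and below that of glycolysis. The 77 mitochondrial ribosomal protein genes build the ribosome that translates the mitochondrial subunits. Their median was 0.40 (0.27 to 0.53), and 68 were above 0, against 48% of all genes tested. They ran from MRPL55 at -0.45, MRPL2 at -0.42 and MRPL52 at -0.35 to MRPL16 at 1.02, MRPS2 at 1.13 and MRPS27 at 1.17. They took 0.423% of counts in MAEL WT and 0.465% in MAEL KO, a ratio of 1.10. The 16 enzymes of the tricarboxylic acid cycle and pyruvate dehydrogenase, SDH left out, had a median of 0.47, with 13 above 0, against the same 48%. IDH3G at -0.27 and IDH3A at -0.15 were at the low end, and IDH3B at 1.05, DLAT at 1.24 and FH at 1.32 at the high end. FH, which makes malate, had 1515 and 3265 counts.

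The 19 genes of glycolysis and pyruvate use had a median of 1.28 (0.12 to 1.69), with 13 above 1, against 10.2% of all genes tested. They took 0.671% of counts in MAEL WT and 1.67% in MAEL KO, a ratio of 2.49 beside 1.26 for the nuclear oxidative phosphorylation genes. In MAEL WT the glycolysis genes thus held a smaller share of counts than the 90 members, and in MAEL KO a larger one. LDHA, which turns pyruvate into lactate, had 6021 and 38749 counts and a log2 fold change of 2.90, while LDHB had 229 and 47 counts and was at -2.05 (-2.56 to -1.62). PDK1, the kinase that holds pyruvate dehydrogenase inactive, was at 1.64 with 520 and 1398 counts, GPI at 1.93, PGK1 at 1.85 and GAPDH at 1.82. TPI1, PGAM1, ALDOA, ENO1, PKM, ALDOC, PFKL and HK2 lay between 1.00 and 1.69. Against the direction of the list, ENO2 was at -1.03, PFKP at -0.73 and PFKM at -0.67. No test of the difference between these lists was made, since genes of a library are not replicates.

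**Figure D5:**
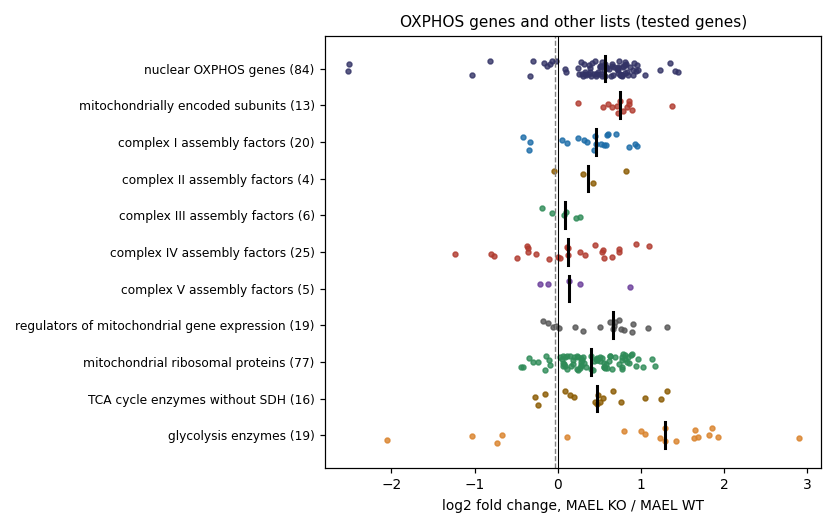
Log2 fold change, positive where MAEL KO is higher (x axis) for the nuclear oxidative phosphorylation genes (OXPHOS, 84 tested) and for other lists (y axis, tested genes in parentheses). Points are genes, black bars list medians, the solid line 0 and the dashed line the median of all genes tested, -0.04. The median is 0.56 for the nuclear genes, 0.75 for the mitochondrially encoded subunits, 0.26 over all assembly factors and 1.28 for glycolysis enzymes.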

How the data were processed

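The authors isolated total RNA from PLC8024 cells and had it sequenced on the Hiseq platform. Per the labels, HISAT2 2.0.5 and featureCounts 1.5.0-p3 were used, with hg19 named as the build, although all 58735 gene coordinates equal those of GENCODE 29 on GRCh38. The authors deposited raw counts, as whole numbers for each gene, and FPKM values, used here as an alternative only. Strand use and the treatment of reads in overlapping genes are not given in the sources used here.

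Counts were scaled by TMM (edgeR 4.0.16, R 4.3.3). Its factors came to 1.10 (MAEL WT) and 0.909 (MAEL KO). Fold changes, exact 95% Clopper-Pearson intervals and TPM from counts and listed lengths were obtained with Python 3.11.15, pandas 2.3.3, SciPy 1.17.1 and NumPy 2.4.6, and plots with matplotlib 3.10.9. As reads carried no molecular identifiers, the Clopper-Pearson intervals and the floors cover counting error only. Intervals of medians came from order statistics over genes. No p-value was computed. The members and lists were chosen with earlier results of these data known. Genes were named if past a log2 fold change of 1, at the ends of a complex or list, failing or just passing the count filter, at the ends by TPM, or core subunits, SDH genes or isoforms, and any others named were chosen after their values were seen. Alternatives were DESeq2 1.42.0 size factors, total counts, the FPKM ratio, other prior counts, filters, thresholds and denominators, chromosome medians, and leaving out loci that share reads. The computations were tested on simulated data. Values of some named genes are not reported here.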

Additional observations from a re-analysis of the deposited data

How the results depend on the processing

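No paired analysis was possible because there is 1 library per condition, and for the same reason no library could be left out. Under DESeq2 size factors, the ratio of FPKM values with 0.01 added, and prior counts of 0.1 and 5, the medians of the members, the complexes and the other lists kept their direction. The number of members above 0 was 73 in the main setting and lay between 69 and 76 over all alternatives. These include total counts and other count filters, and some of them change the number of members tested. In TPM, which is not among them, 64 of the 84 tested members were higher in MAEL KO.

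Total counts lowered every value, by construction of the scaling. The median was then 0.29 for all members, 0.13 for complex I, 0.40 for complex III, 0.23 for complex IV and 0.49 for complex V. It was 0.25 for CYC1, CYCS and NDUFAB1, 0.18 for complex I assembly factors, 0.48 for mitochondrially encoded subunits and 0.13 for mitochondrial ribosomal proteins. It changed sign to -0.19, -0.16 and -0.14 for assembly factors of complexes III, IV and V and to -0.0121 for all assembly factors, and the sign also changed for 9 named genes, namely SDHB at -0.18, NDUFS3 at -0.19, LYRM7 at -0.0578, BCS1L at -0.20, UQCC2 at -0.17, UQCC3 at -0.0102, ATPAF1 at -0.14, TMEM242 at -0.0141 and MT-CO1 at -0.0281. Of all members, 4 changed sign, SDHB, NDUFS3, NDUFB11 and NDUFA12. Subtracting the chromosome median took the mitochondrially encoded subunits to 0.14, with MT-ATP8 at -0.0091, MT-CO2 at -0.0710 and MT-CO1 at -0.36, by a median taken over the mitochondrial genome itself. It also took POLG2 from -0.06 to 0.0073.

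With at least 100 counts required, 0 members were below -2 in place of 2, since NDUFA4L2 and COX6B2 fail that filter. At a threshold of 1, 5 members were above and 3 below. Over nuclear protein-coding counts the members' share was 0.801% and 1.01%. The alternative without genes that share over 50% of exon bases was added after the data had been seen, and it removed ATP5ME only. With a prior count of 5, 1.4% of all genes were above 2 and 2.87% below -2, and without a count filter 3.42% were above 2. Depth limits NDUFA7, COX7A1 and COX7B2, whose intervals reached across 0, and the 6 members that failed the filter.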

Other observations

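Genes annotated as processed, transcribed processed or unprocessed pseudogenes and named after the members had few counts. The 156 such rows had 338 counts in MAEL WT and 366 in MAEL KO, which is 0.228% and 0.188% of the counts of the members themselves. Other pseudogene classes, transcribed unprocessed ones among them, were left out of this sum, so it does not cover all copies of the members. How reads that match several places were counted is not given in the sources used here.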
